A study of Arabidopsis thaliana with 2 samples.

Results

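Of the genes bound by LHY in Arabidopsis thaliana seedlings, 146 were listed with 2 or more binding peaks, out of 1602 listed genes (9.11%). All pairs of a gene and a peak from those genes were taken, 306 of 1762 in the authors' deposited table. There were 133 genes with 2 peaks, 12 with 3 and 1 with 4, and the other 1456 genes had 1 peak each. The genes were chosen by their number of called peaks, which comes from the same binding measurement as the strengths and positions below, so strengths and positions are described without a test.

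LHY, a MYB transcription factor at the core of the plant circadian clock, accumulates around dawn and mainly represses genes expressed later in the day. Its best known DNA target is the evening element, a short motif found in the promoters of many evening genes. Promoters that a clock factor contacts at several places are of interest because each place could carry a separate regulatory element.

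Chromatin from whole Col-0 seedlings aged 2 weeks, collected 2 h after dawn, was immunoprecipitated with LHY antiserum (chromatin immunoprecipitation followed by sequencing, ChIP-seq). The immunoprecipitated DNA of 4 independent chromatin samples went into 1 pooled library, and 1 library of input DNA was the control. With 1 library per group no value below carries replicate error, and read depth is unknown. Plants without LHY were not analysed here. The strength of a peak is its −log10 q from the authors' peak caller, where q is the adjusted p-value of the peak against input. A ratio of strengths is therefore a ratio of −log10 q values, not of amounts of bound LHY. Many values recur: the 1762 pairs of a gene and a peak hold 935 distinct values, and the most frequent occurs in 70 pairs. The position of a peak is its distance from the transcription start site (TSS) of the gene, negative upstream, as the authors gave it.

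Clock genes with several peaks differed in which peak was the stronger. GI, whose product works together with FKF1 to sense day length, had its stronger peak (−log10 q 162) at −861 bp and a weaker one (66.0) at −33 bp, 828 bp apart. PRR5, a pseudo-response regulator that represses LHY and CCA1, had nearly equal peaks of 78.0 at −1003 bp and 77.1 at −2255 bp, a ratio of 1.01. CHE (AT5G08330), a TCP-type repressor of CCA1, had 77.3 at −961 bp and 24.2 at −1808 bp. The peak nearer the TSS was thus the weaker one at GI and the stronger one at CHE, and the peaks of PRR5 were all but level. That ratio was the smallest of the 146 genes.

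The MYB-type REVEILLE genes RVE1 and RVE2, relatives of LHY, were arranged in opposite ways. RVE1, known for tying auxin synthesis to the clock, had its stronger peak of 38.6 at −3309 bp and 8.50 at −1505 bp. RVE2 had its stronger peak of 43.9 at −164 bp and 9.39 at −2637 bp. The −log10 q of the strong peak was 4.55 times the other at RVE1 and 4.67 times at RVE2. These 5 genes were all of the several-peak genes on the clock lists: 3 of the 12 with any peak on the list named evening-phased and 2 of the 8 on the list named morning-phased. These list names come from general knowledge and differ from the phases in the authors' table, which are 7 h for GI and PRR5, 5 h for CHE, 15 h for RVE2 and 23 h for RVE1. TIC (TIME FOR COFFEE), a clock regulator that was on no list and was picked after its values were seen, had 27.5 at −2730 bp and 6.74 at −183 bp.

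**Figure D1:**
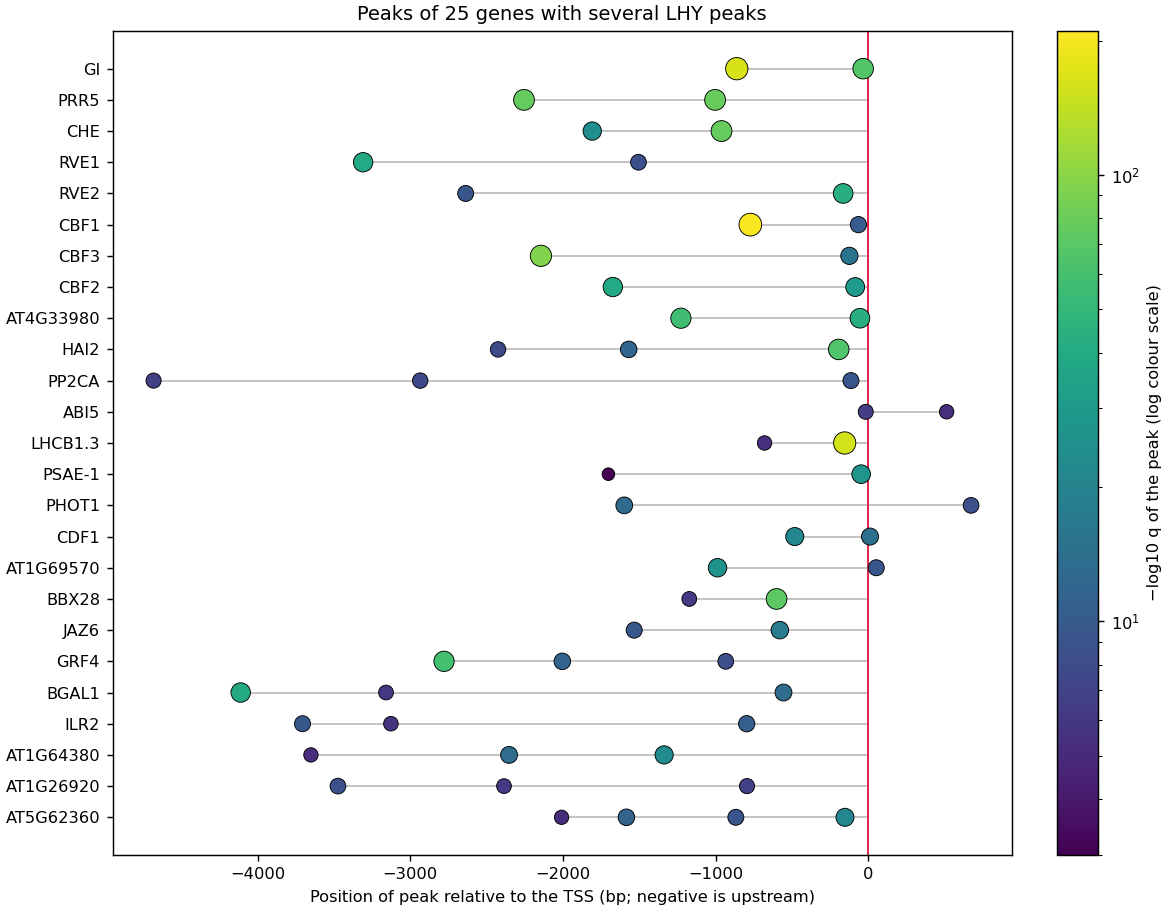
Peaks of 25 genes with several LHY peaks, by position relative to the TSS (x axis, bp; the red line is the TSS); colour and size show −log10 q on a log scale. At GI, CBF1, CBF3, CBF2 and AT4G33980 the stronger peak is the one farther from the TSS, while at CHE, RVE2, HAI2, LHCB1.3 and BBX28 it is the nearer one.

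Each of the 3 tandem CBF genes, transcription factors that switch on cold-response genes, had its weaker peak close to the TSS and its stronger one farther upstream. CBF1 had 202, the highest value among the 146 genes, at −772 bp and 10.3 at −64 bp. CBF3 had 94.6 at −2144 bp and 15.3 at −123 bp, and CBF2 had 38.6 at −1673 bp and 30.4 at −85 bp. Measured from their own TSS, the near peaks spread over 59 bp and the far peaks over 1372 bp. In −log10 q, the stronger peak was 19.6 times the weaker at CBF1, 6.17 times at CBF3 and 1.27 times at CBF2. The CBF genes are tandem duplicates, and the handling of reads matching more than 1 copy is not given in the sources here. AT4G33980, whose best protein match in the authors' table is a cold regulated gene, was arranged likewise, with 56.9 at −1227 bp and 43.8 at −54 bp. On the list of genes responsive to cold or abscisic acid (ABA), 3 of the 10 matched genes with any peak, the CBF genes, had several. The listed symbol COR28 found no locus in the gene table. This count therefore leaves it out, even if a gene described here by its locus number is COR28.

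The genes on the ABA signalling list with several peaks were a pair of phosphatase genes with 3 peaks each and ABI5. HAI2, a protein phosphatase of type 2C that restrains ABA responses, had 3 peaks that weakened with distance, 65.3 at −193 bp, 11.7 at −1569 bp and 7.63 at −2425 bp. PP2CA, another phosphatase of that type, also had 3, with 9.39 at −113 bp, 7.64 at −2935 bp and 6.80 at −4682 bp. In both genes the farther a peak lay from the TSS, the weaker it was. The 3 peaks of PP2CA were also listed for its neighbour AT3G11420, where the order was the reverse. ABI5, encoding a bZIP factor active in seed germination arrest, had 6.52 at −16 bp and 5.32 downstream of the TSS at 514 bp. Of 8 ABA signalling genes with any peak, these 3 had several.

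Of the genes of light use and light sensing below, LHCB1.3, PSAE-1 and BBX28 had their strongest peak nearest the TSS, and PHOT1 had not. LHCB1.3 (AT1G29930), a chlorophyll-binding protein gene, had 158 at −154 bp and 5.33 at −679 bp. Its ratio of 29.6 was the largest of all 146 genes. PSAE-1, a photosystem I subunit gene on no list, had 27.3 at −46 bp and 2.99 at −1702 bp, the weakest peak of any gene with several. BBX28, a B-box zinc finger gene, had 71.5 at −600 bp and 6.04 at −1172 bp. The blue-light receptor gene PHOT1 had 12.7 at −1598 bp and 8.50 at 674 bp downstream of its TSS. Several peaks were found for 1 of 12 genes with any peak on the light-harvesting and chlorophyll list, 1 of 6 on the list of photoreceptors and light signalling and 1 of 6 B-box genes. The LHCB1 genes are nearly identical in sequence, so their peaks share the limit on matching reads given for the CBF genes.

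The remaining lists held few members. CDF1, a DOF-type repressor of CONSTANS, had 21.7 at −481 bp and 14.2 at 12 bp, and was 1 of 6 matched and bound genes on the photoperiodic flowering list. The DOF-type zinc finger gene AT1G69570 had 25.8 at −987 bp and 9.39 at 53 bp, again with the stronger peak upstream. It was matched to no list and was named after its values were seen. The listed symbol CDF5 found no locus in the gene table, nor did STH7 on the B-box list. The counts leave them out, even if a gene described here by its locus number is one of them. JAZ6, a repressor of jasmonate response, had 17.5 at −579 bp and 9.47 at −1533 bp, and was 1 of 6 bound on the jasmonate and ethylene list. IAA1, an auxin response repressor, was 1 of 8 bound on the gibberellin and auxin list and is described with its neighbour below. On the starch list 0 of 10 bound genes had several peaks. Because the number of peaks defined the genes described here, these counts are not read against the 9.11% over all genes.

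The 13 genes with 3 or 4 peaks showed no single order of strength. AT5G62360, a gene of the invertase and pectin methylesterase inhibitor family and the only one with 4 peaks, had 21.2 at −152 bp, 9.20 at −867 bp, 11.6 at −1584 bp and 5.16 at −2009 bp. Its strongest peak was the nearest and its weakest the farthest. GRF4, a growth-regulating transcription factor, showed the reverse order, with 8.50 at −933 bp, 11.7 at −2004 bp and 58.9 at −2779 bp. At BGAL1, a beta-galactosidase gene, the strongest peak (39.9) was also the farthest, at −4111 bp, with 6.001 at −3159 bp and 13.2 at −555 bp. ILR2, a gene of auxin conjugate sensitivity, had 10.6 at −796 bp, 5.62 at −3127 bp and 9.50 at −3706 bp. AT1G64380, of the integrase-type DNA-binding family, had 22.8 at −1337 bp, 13.2 at −2353 bp and 5.18 at −3651 bp, and AT1G26920, of unknown function, had 6.80 at −794 bp, 6.001 at −2386 bp and 8.50 at −3474 bp. Among the 12 genes with 3 peaks, the nearest was the strongest in 5. These 12 include 3 neighbouring pairs, described below, whose genes are listed with the same peaks.

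Across all 146 genes the peak nearest the TSS was the strongest in 67, or 45.9% (95% exact interval 37.6 to 54.3). The nearest peaks had a median −log10 q of 10.3 and the strongest of the others 11.3. Strength thus showed no clear lean towards the near or the far peak. The share was 61.4% (27 of 44 genes, interval 45.5 to 75.6) where the nearest peak lay 1 to 300 bp upstream, as at LHCB1.3, HAI2 and RVE2. It was 50.0% (19 of 38) where the nearest lay over 300 and up to 1000 bp upstream, 33.3% (16 of 48, interval 20.4 to 48.4) where it lay farther upstream, and 31.3% (5 of 16) where it lay at or downstream of the TSS. These intervals overlap between neighbouring classes, treat genes as independent and cover counting error only. In 17 neighbouring pairs, described below, 2 genes that point away from each other share the same 2 peaks. Such a pair always adds 1 gene whose nearest peak is the strongest and 1 whose nearest is not, whatever the strengths. Among the genes that share no peak, the share was 45.5% (45 of 99, interval 35.4 to 55.8).

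**Figure D2:**
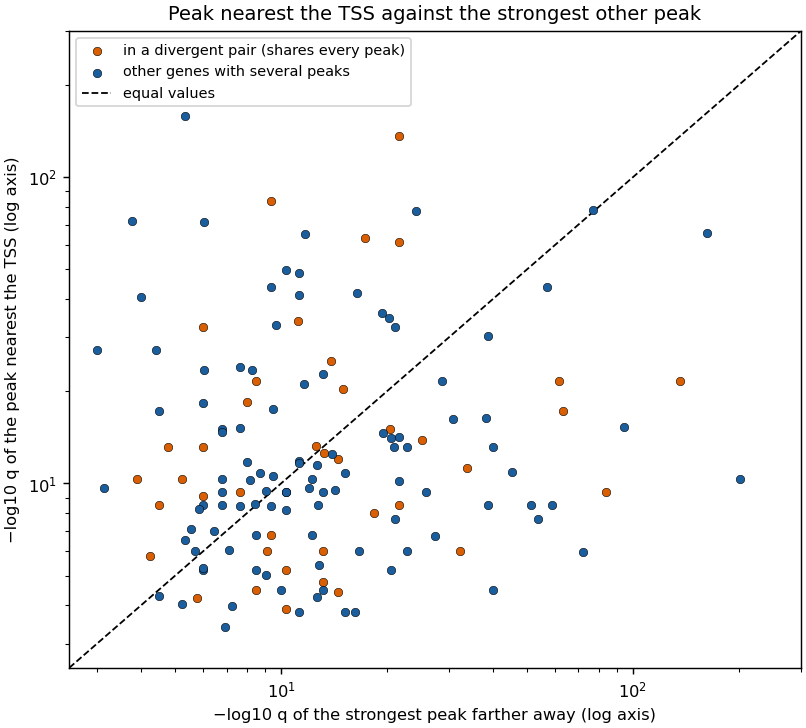
Strength of the peak nearest the TSS (y axis) against the strongest peak farther away (x axis) for each of the 146 genes, both as −log10 q on log axes. In 67 genes the nearest peak is the stronger (above the dashed line), and genes lie on both sides over the whole range of strengths.

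The strongest peak of a gene exceeded its weakest by a median of 2.14 times (quartiles 1.38 and 3.65) in −log10 q. In 51 genes (34.9%) the strongest was less than 1.5 times the second, as at PRR5, CBF2 and AT4G33980. In 43 genes (29.5%) it was at least 3 times the second. Most pronounced towards the near peak, after LHCB1.3, were PUB9, a U-box gene (72.2 at −1762 bp against 3.77 at −5780 bp), BBX28, BTI3 (40.7 at −628 bp against 4.01 at −1056 bp) and PSAE-1. Most pronounced towards a far peak were CBF1, AT1G75190, of unknown function (72.1 at −760 bp against 5.98 at 161 bp), MYB59, AT3G49790, listed as a carbohydrate-binding protein (40.0 at −1396 bp against 4.50 at 40 bp), and AT5G60680, of unknown function (53.9 at −1794 bp against 7.64 at −158 bp). With gaps under 1000 bp, 1000 bp to under 2000 bp and 2000 bp or more, the median ratio of the genes with 2 peaks was 2.14, 1.80 and 2.28, so spacing and imbalance did not move together in 1 direction.

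Adjacent peaks of a gene lay a median of 1118.5 bp apart (quartiles 688 and 1903 bp), over 160 gaps. Gaps under 1000 bp, the upper end of the sheared fragment sizes, numbered 67 (41.9%), and 19 were under 500 bp. The narrowest were 281 bp at AT4G04296, a LINE-type retrotransposon (7.10 at −1683 bp and 6.07 at −1402 bp), 284 bp at the lectin-type gene AT1G78850 and 341 bp at REV3, which encodes a DNA polymerase subunit, beside the pair STY17 and RTFL6 with 340 bp. At the other end 9 gaps were 5000 bp or more. Apart from pairs that share peaks, described below, these included ERF15, an ethylene response factor gene (30.8 at −9528 bp and 16.3 at −2111 bp), and EXPA1, an expansin gene of cell wall loosening (13.2 at −7161 bp and 4.50 at −671 bp).

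**Figure D3:**
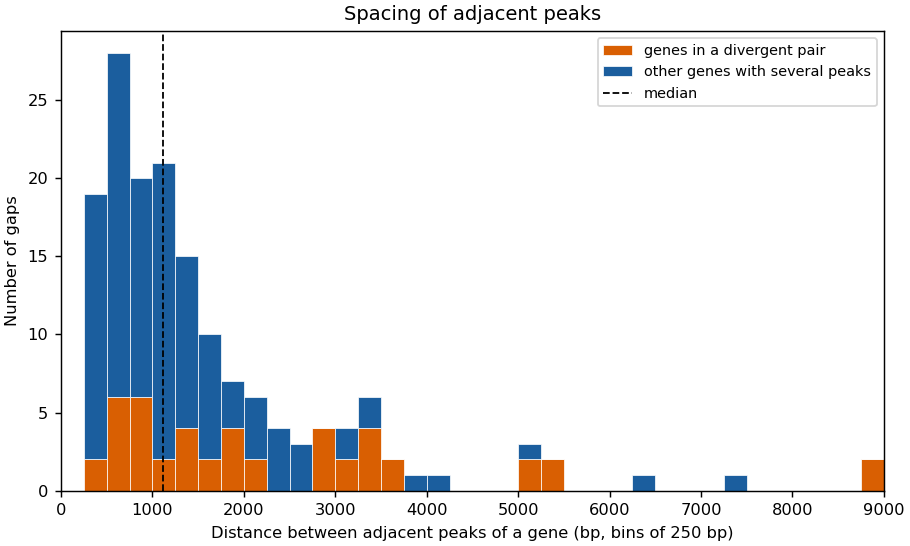
Distances between adjacent peaks of the same gene (x axis, bins of 250 bp) as a stacked count (y axis) for genes in divergent pairs and all others with several peaks. The dashed line is the median of 1118.5 bp, and the widest gap is 8809 bp. Gaps of divergent pairs are counted at both genes.

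The peaks of these genes lay farther from the TSS than those of genes with 1 peak. Of the 306 pairs of a gene and a peak, 125 (40.8%, interval 35.3 to 46.6) lay between 1000 bp upstream and 200 bp downstream of the TSS, against 1029 of 1456 (70.7%, interval 68.3 to 73.0) for genes with 1 peak and 65.5% over all pairs. The median position of the strongest peak was −1222.5 bp, against −345 bp for the only peak of the other genes. Even the nearest peak of each several-peak gene had a median position of −571 bp. At least 1 of the peaks lay in that promoter window in 96 genes, and 29 of these, GI and CBF1 among them, had 2 there. The other 50 genes had none in it. Position was part of how the authors paired peaks with genes, so no test was made of these differences.

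At least 1 peak upstream and 1 at or downstream of the TSS were listed for 18 genes (12.3%), among them KAI2 with its stronger peak at 0 bp, and no gene had all its peaks at or downstream. Those at or downstream of the TSS made up 5.88% of the 306 pairs, against 12.4% for genes with 1 peak and 11.2% over all pairs. Examples are FERONIA, a receptor kinase gene of cell growth, with 12.6 at −387 bp and 11.5 at 55 bp, and SR1, a protein kinase gene, with 36.0 at 136 bp and 19.4 at −383 bp. ACA8, a calcium pump gene, had the strongest of the downstream peaks after AT2G21300, with 41.2 at 469 bp and 11.3 at −4668 bp. FERONIA, SR1 and ACA8 were chosen after their values were seen.

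The median of the strongest peak −log10 q 17.0 (quartiles 10.3 and 33.9) in genes with several peaks, against 10.1 (quartiles 6.80 and 17.2) in genes with 1 peak. The higher of several values exceeds a single one by construction. Over all their peaks the medians were 10.3 and 10.1, and the weaker peaks had a median of 8.03. At the limit of the rule, genes with exactly 2 peaks had a median strongest value of 16.7 and genes with 1 peak the 10.1 given above.

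A large part of the genes with several peaks came in neighbouring pairs that were listed with the same peaks. In 20 pairs of genes at most 5 places apart in the annotation, every −log10 q of one gene recurred at the other, and 15 of these pairs had no gene between them. In all 20 pairs the distances of a peak from both TSSs added up to the same number for each shared peak, with a spread of 0 bp. The genes of each pair therefore point away from each other, with all their peaks in the stretch between their TSSs, which ran from 1116 bp to 11040 bp (median 4826.5 bp). These 40 genes hold 86 of the 306 pairs of a gene and a peak but only 43 peaks, so the 306 pairs correspond to 263 distinct peaks.

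Between SMZ, an AP2-type floral repressor gene, and TON1A, a gene of microtubule organisation, lay a peak of 137 at −1664 bp from SMZ and −3323 bp from TON1A, and one of 21.7 at −2584 and −2403 bp. MYB59 and AT5G59790 shared 3 peaks, the strongest of which (83.8) lay at −5843 bp from MYB59 and −1442 bp from AT5G59790. BRU6, an auxin-induced gene, shared its peak of 63.2 at −128 bp with AT4G37380, from which it lay at −5592 bp. OBP4, a DOF-type transcription factor gene, and AT5G60840 shared 61.6 at −3641 and −2318 bp and 21.7 at −61 and −5898 bp. In each of these pairs the strongest peak lay at unequal distances from the genes and was listed for both.

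The widest pair joined IAA1 and IAA14, both auxin response repressors. Their shared peak of 8.49 lay at −235 bp from IAA1 and −10805 bp from IAA14, and that of 4.50 lay at −9044 and −1996 bp. DGK7, a diacylglycerol kinase gene, shared 9.11 and 6.001 with AT4G30350 (SMXL2, of the SMAX1-like family of karrikin and strigolactone signalling), whose peaks lay at −866 and −6203 bp. RPT2, a signal transducer of phototropism, shared 20.4 and 15.0 with AT2G30530, and MYBR1, a MYB gene of stress response, shared 3 peaks of 4.43 to 14.6 with AT5G67290. PP2CA shared all 3 of its peaks with AT3G11420.

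In all 20 pairs each gene was the nearer one for at least 1 of the shared peaks. The table's header says that a peak was assigned to the closest gene facing away from it, yet both genes of each pair are listed with both near and far peaks. A further 7 genes with several peaks had 1 value in common with a gene that has 1 peak, and in 6 of them that peak was nearer to the neighbour. AT1G75190, for example, shared 72.1 with AT1G75180, where it lay at −293 bp. KAI2, the karrikin receptor gene, shared 8.41 at −565 bp with AT4G37480, where it lay at −224 bp. The exception was PPC2 (AT2G42600). At PPC2, and at CIPK21 among the 6, the common value was 6.001, which occurs in 57 pairs of the table, so a coincidence cannot be told apart from a shared peak at either gene. Among the 1456 genes with 1 peak, 0 neighbouring pairs shared their peak. When each shared peak was kept at the nearer gene, 103 genes had 2 or more peaks in place of 146. GI, PRR5, CHE, RVE1, RVE2, the CBF genes, HAI2 and LHCB1.3 share no peak.

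**Figure D4:**
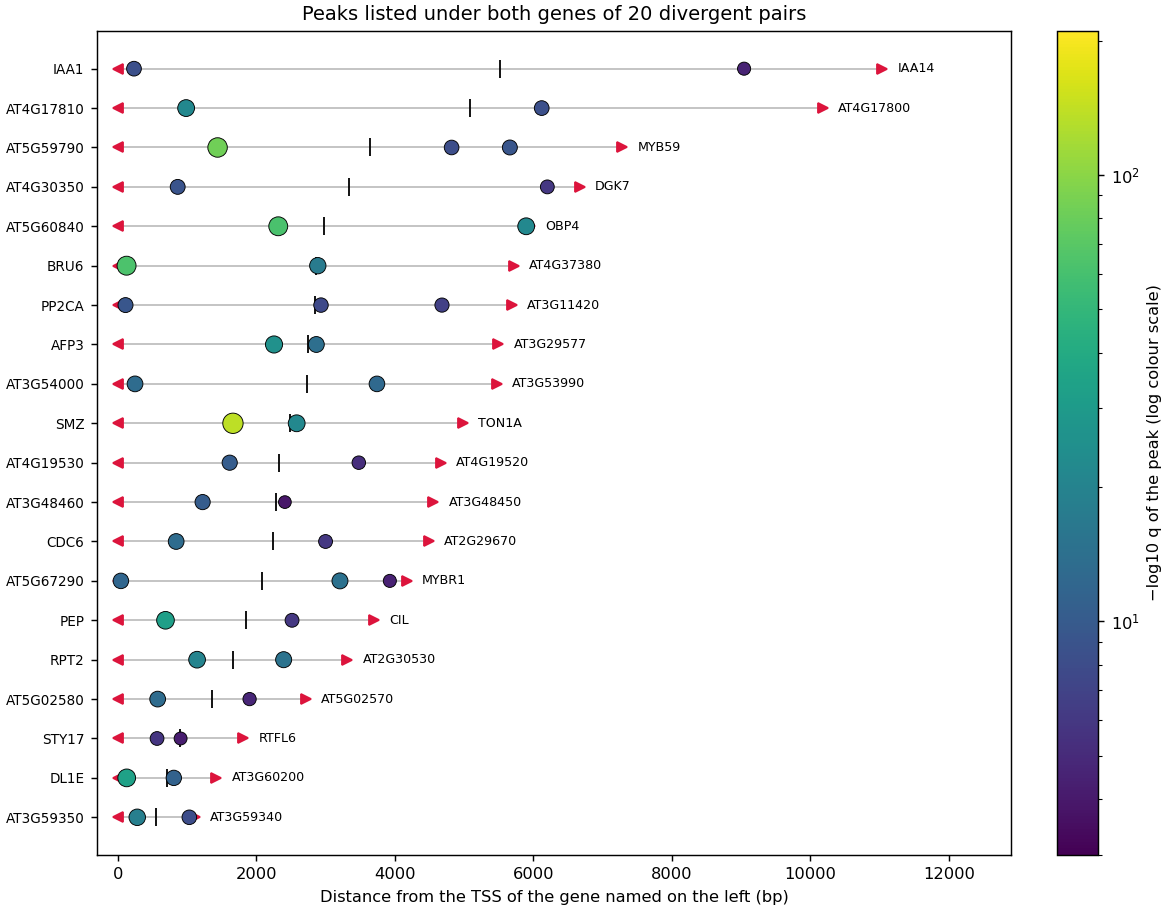
The 20 divergent pairs, drawn from the TSS of the gene on the left (x axis, bp) to that of the gene on the right; red arrows point in the direction of transcription, black ticks mark the midpoint and colour and size show −log10 q on a log scale. In every pair at least 1 peak lies on each side of the midpoint.

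A phase of expression in constant light, which the authors took from a database and not from the binding measurement, was listed for 74 of the 146 genes (50.7%, interval 42.3 to 59.0). Of the genes with 1 peak 536 had one (36.8%, interval 34.3 to 39.3), and over all genes 38.1% did. Strength moves with both measures, so the shares were also set side by side in 4 groups cut at the quartiles of the strongest −log10 q over all genes. In the strongest group 57.7% of 71 several-peak genes and 51.5% of 330 others had a phase. In the next it was 44.1% of 34 and 41.5% of 342, then 48.5% of 33 and 29.2% of 356, and in the weakest 2 of 8 genes and 28.0% of 428. The intervals overlap in each group, also where the shares lay farthest apart (30.8 to 66.5 and 24.5 to 34.2). No test was made of this difference, and the part of strength in it was not tested.

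Of the 74 phases, 36 (48.6%, interval 36.9 to 60.6) fell at 6 to 11 h after subjective dawn, against 45.0% (241 of 536) for genes with 1 peak and 45.4% over all rhythmic genes. At 0 to 5 h there were 21 (28.4%) against 21.6%, at 12 to 17 h 8 (10.8%) against 18.3%, and at 18 to 23 h 9 (12.2%) against 15.1%. The most frequent phase was 8 h in both groups, with 11 and 82 genes. It was listed for AT4G33980, BGAL1 and RAP2.4, an AP2-type gene. GI, PRR5, FERONIA and AT5G62360 had 7 h, and PHOT1 and CBF3 had 6 h. CHE and MYB59 had 5 h, LHCB1.3, PSAE-1 and OBP4 had 3 h, and CDF1 had 1 h. Among the genes in the subjective night were RVE2 (15 h), SMZ (16 h), the glucose-6-phosphate translocator gene GPT2 (19 h) and RVE1 (23 h). CBF1, CBF2, HAI2, PP2CA and ABI5 had no phase in the table.

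**Figure D5:**
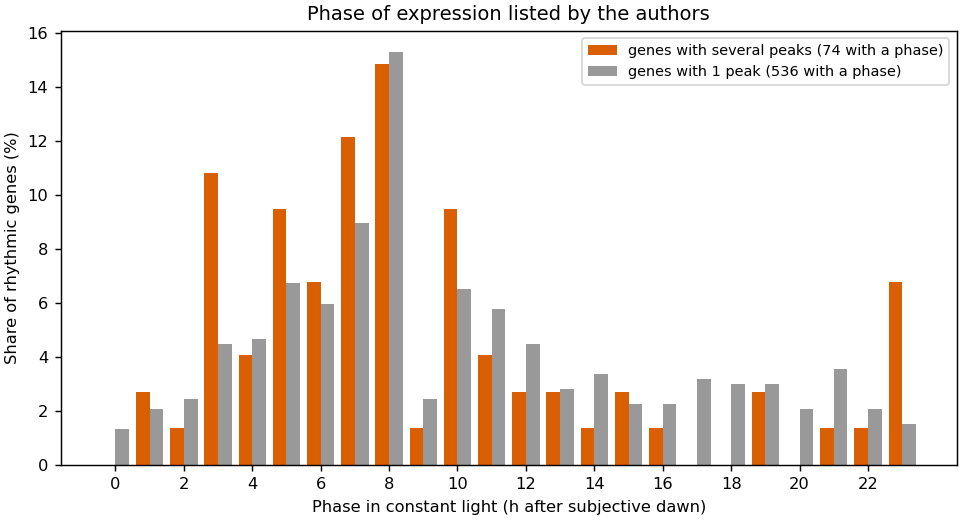
Phase of expression in constant light (x axis, h after subjective dawn) as the share of rhythmic genes (y axis, %), for the 74 several-peak genes with a phase (orange, left bar of each hour) and the 536 genes with 1 peak and a phase (grey). Both groups have their highest bar at 8 h.

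The rhythmic genes and those without a phase had overlapping intervals in the layout of their peaks. The nearest peak was the strongest in 36 of 74 rhythmic genes (48.6%, interval 36.9 to 60.6) and in 31 of 72 without a phase (43.1%, interval 31.4 to 55.3). The median span between the outermost peaks was 1188.5 bp in rhythmic genes and 1308.5 bp in those without a phase, and the median strongest −log10 q was 20.7 in rhythmic genes and 14.6 in those without a phase. Among the 20 divergent pairs, both genes had a phase in 4. These were 10 h for both DL1E, a dynamin-like gene, and AT3G60200, 3 h for both OBP4 and AT5G60840, 4 h for IAA1 and 2 h for IAA14, and 15 h for DGK7 and 13 h for SMXL2. In 11 pairs 1 gene had a phase, and that gene was the nearer to the strongest peak in 6 of them, as with SMZ (16 h) beside TON1A, but not in the pair of MYB59 (5 h) and AT5G59790.

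The authors' functional descriptions named a transcription factor or DNA-binding function for 31 of the 146 genes (21.2%, interval 14.9 to 28.8). The same words were found for 168 of the 1456 genes with 1 peak (11.5%, interval 9.94 to 13.3) and for 12.4% of all genes. They held 9 genes with an ERF-type DNA-binding domain (6.16%, interval 2.86 to 11.4), against 22 of the genes with 1 peak (1.51%) and 1.94% of all genes. These 9 were CBF1, CBF2, CBF3, SMZ, ERF2, ERF15, RAP2.4, AT5G61590 and AT1G64380. Of them ERF2, an ethylene response factor gene, had 14.7 at −155 bp and 6.80 at −858 bp, and AT5G61590 had 23.5 at −65 bp and 8.24 at −637 bp. Tandem genes such as the CBF genes are not independent, and the intervals do not allow for that. The words for transcription factor or DNA-binding also took in AT5G02570, listed as a histone family protein, and missed OBP4, GRF4 and CDF1.

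Descriptions with the word Myb were found for 8 of the 146 genes (5.48%, interval 2.40 to 10.5), against 30 genes with 1 peak (2.06%) and 2.37% of all genes. Besides RVE1, RVE2, MYB59 and MYBR1 they included MYB47 (8.50 at −5404 bp and 6.001 at −6788 bp) and MYB73 (5.23 at −1660 bp and 4.05 at −632 bp). Descriptions with the words protein kinase or kinase activity were found for 10 genes (6.85%, interval 3.33 to 12.2) against 4.12% of genes with 1 peak and 4.37% of all genes, among them PHOT1, FERONIA and SR1. The words also took in DGK7, a lipid kinase. Names with an unknown protein or function made up 17.8% (26 genes) against 15.4% and 15.6% of all genes. Type 2C phosphatases were 2 of the 146 genes (1.37%), HAI2 and PP2CA, against 4 genes with 1 peak (0.275%) and 0.375% of all genes. RAP2.4, ERF2, AT5G61590, MYB47, MYB73 and GPT2 were named after their values were seen. The words for these classes were chosen after the table had been read, so the shares are descriptions without a test.

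By biotype, 142 of the 146 loci were protein-coding (97.3%), against 91.7% of the loci with 1 peak. AT5G49370 had no match in the annotation, so its biotype is unknown and it is not among the 142. The share of listed genes that had several peaks was 12.8% on chromosome 3 (42 of 327, interval 9.42 to 17.0), 27 of 246 on chromosome 4, 9.86% on chromosome 5, 7.14% on chromosome 1 and 4.58% on chromosome 2 (12 of 262, interval 2.39 to 7.86). Both genes of a divergent pair count here although they are listed with the same peaks, and the intervals do not allow for that. Differences between chromosomes were not tested.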

How the data were processed

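Binding was measured in 1 LHY ChIP-seq library, pooled from 4 ChIP samples, against 1 input library. The submitters' processing notes name the TAIR9 build, Bowtie and MACS2 (2.0.10.09132012). No source used here gives the peak threshold. The deposited table gives for each gene up to 4 peaks with a −log10 q value (another header line calls it −log10 of the p-value), a position in bp from the TSS and a phase from the Diurnal database (cut-off 0.8), per the file headers. Whether positions are summits or centres is not given, and depth is unknown.

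All 1602 loci were read, and 145 of the 146 with several peaks matched a TAIR10.1 gene table, used for symbols, biotypes and gene order. Equal −log10 q at genes at most 5 places apart counted as 1 shared peak. For the pairs that share every peak, summed distances also had to match within 2 bp. The other shared peaks rest on equal values at such genes alone. Spacing is the distance between adjacent positions; nearest means the smallest distance from the TSS. Shares have Clopper-Pearson 95% intervals. No test was run: with 1 library per group none is possible between conditions. The genes and lists were chosen with earlier results of these data known. Named genes are list members, genes with 3 or 4 peaks, those with the 10 highest first or second −log10 q, the 5 most extreme spacings and ratios, and genes that share peaks; others are said to be chosen later. List symbols that fit several loci were set by locus. COR28, CDF5 and STH7 found no locus and were left out. The functions for spacing, shared peaks and nearest peaks were tested on simulated data. A planned count of evening elements in promoters was not run, as no sequence was analysed here. Python 3.11.15, NumPy 2.4.6, pandas 2.3.3, SciPy 1.17.1 and Matplotlib 3.10.9 were used.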

Additional observations from a re-analysis of the deposited data

How the results depend on the processing

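Of 42 values under other settings, 36 stayed within the interval of the value given (for the number of genes, within 1.5 times). That wide limit took in a fall from 146 genes to 99 without genes sharing a peak. It also took in the 103 genes left with each shared peak kept at the nearer gene. Keeping each shared peak at the nearer gene, using 1 gene of each divergent pair, and the alternatives for the number of genes were added after seeing the data. The share of genes whose nearest peak is the strongest stayed between 44.0% and 47.7% over its 8 alternatives, and the median spacing between 1028 and 1237 bp. With peaks above the median −log10 q of all pairs (10.2) alone, 50 genes had 2 or more peaks, 62.0% of them had a phase and 61.3% of those phases lay at 6 to 11 h; fewer and stronger peaks enter by construction. Moving the phase window to 8 to 13 h gave 35.1%, and 4 to 9 h gave 48.6%. The share of peaks in the promoter window was 22.9% with 500 bp and 79.7% with 3000 bp upstream, as the window is smaller or larger by construction. The evening element count was not run. Depth is unknown, so a second weak peak could have been missed at genes listed with 1. No paired analysis was possible because ChIP and input are 1 library each.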
